A study of Mus musculus with 6 samples.

Results

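The 10 genes Pecam1, Cdh5, Emcn, Kdr, Flt1, Tek, Tie1, Egfl7, Ehd3 and Plvap mark the endothelium that lines the blood vessels of the kidney. They were taken by symbol from a deposited table of 23396 genes, and all 10 were found and passed the filter on low counts that left 14354 genes for testing. RNA of the right kidney was compared between 3 male mice of strain C57BL/6N-Far2tm2a(KOMP)Wtsi/2J, labelled as homozygous for a Far2 knockout allele, and 3 male C57BL/6N wild-type mice, all aged 6 months and with no treatment in the labels. Far2 encodes a reductase that turns fatty acyl-CoA into fatty alcohol. Libraries carry the numbers 0, 1 and 2 within a group, and these match no mouse in the labels. Because whole kidney was sequenced, fewer endothelial cells and less RNA per endothelial cell cannot be told apart.

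Endothelial cells hold their vessel wall together through adhesion proteins such as PECAM-1 and VE-cadherin, and survive on VEGF and angiopoietin signals. Podocytes and tubules of the kidney secrete VEGF-A, which acts on the receptors KDR and FLT1 of neighbouring capillaries, while TEK and TIE1 form the angiopoietin receptor system that keeps vessels quiescent. Glomerular capillaries have open fenestrae and express Ehd3, and the capillaries around tubules close their fenestrae with diaphragms made of PLVAP. The comparison asks whether this endothelial programme, or the balance of the capillary beds, differed in kidneys of Far2 knockout mice.

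The libraries held from 15261362 to 20631158 fragments assigned to genes. Far2 itself had 40, 40 and 22 fragments in the wild-type libraries against 28, 19 and 31 in the knockout libraries, values over the whole gene that do not check the genotype labels. The kidney genes Slc34a1, Lrp2, Umod, Slc12a3 and Aqp2 were present in every library. Wild-type library 0 stood apart in tubular injury, with Havcr1, which encodes KIM-1, at 21.5 CPM (fragments of a gene per 1000000 in the library) against 0.617 to 0.916 CPM in the other 5 libraries. Results are therefore also given without it. Across the 14354 genes, edgeR's quasi-likelihood test called 0 at a Benjamini-Hochberg adjusted p under 0.05 (0.0%), while DESeq2 called 13 and 1193 genes reached an unadjusted p under 0.05.

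None of the 10 endothelial genes differed between the genotypes beyond the spread between mice. By edgeR's quasi-likelihood test 0 of 10 passed after Benjamini-Hochberg adjustment (background 0.0%), 0 of 10 reached an unadjusted p under 0.05 (background 8.31%, of which 5.14% lower and 3.17% higher in knockout), and by DESeq2 0 of 10 passed (background 0.0906%). The ranges of the 2 groups overlapped for all 10 genes, against 14.1% of tested genes without overlap (6.96% lower and 7.12% higher in knockout). The mean was higher in knockout for 5 and lower for 5, with a median log2 fold change of −0.013, against −0.0066 over all genes tested. The fitted ratios of knockout over wild type ran from 0.889 for Ehd3 to 1.05 for Emcn. Their 95% confidence intervals reached down to 0.673, for Ehd3, while on the log2 scale the highest bound was 0.26, for Kdr.

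**Figure D1:**
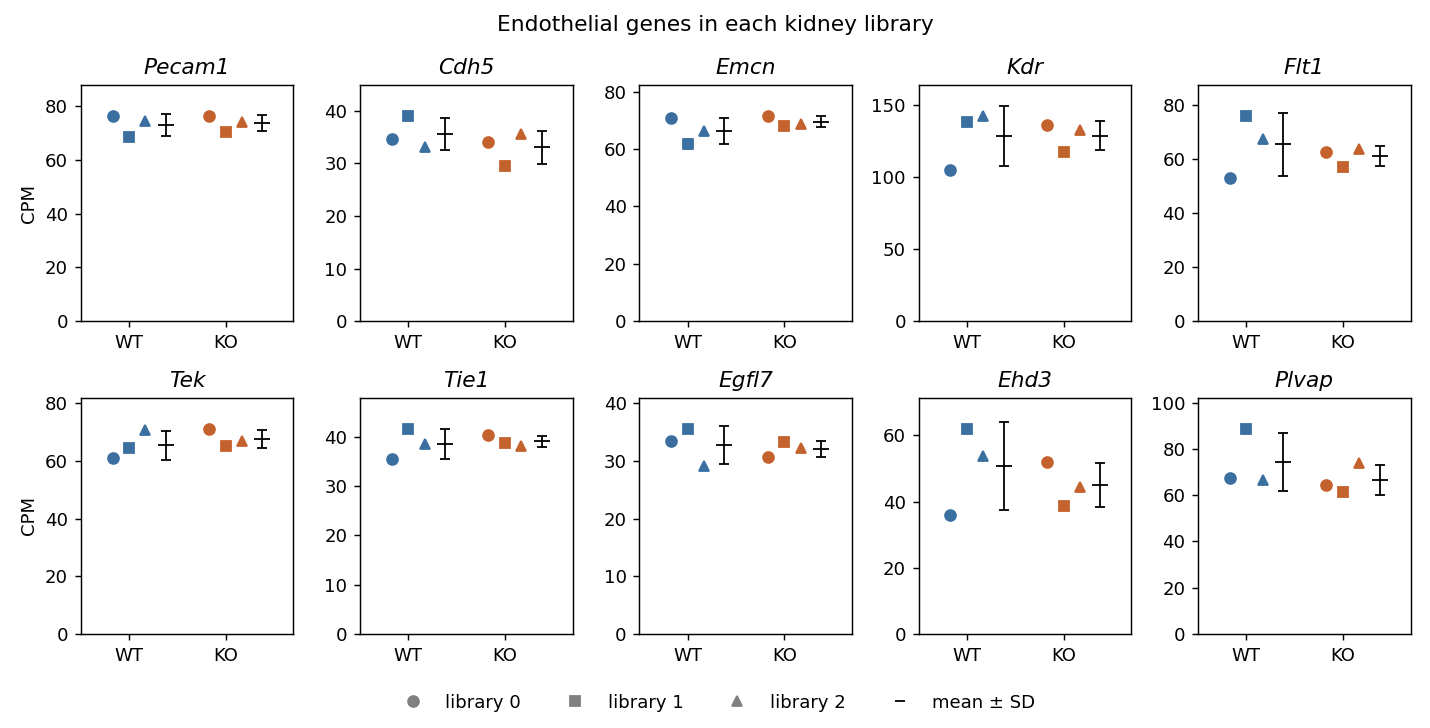
CPM of the 10 endothelial genes (vertical axes, from 0) in each library, wild type (WT, blue) and knockout (KO, orange). Symbols give libraries 0, 1 and 2, which do not pair across groups, and bars the mean and SD of 3 libraries; every pair of groups overlaps, and Ehd3 is the most spread, from 36.0 to 62.0 CPM.

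Pecam1 encodes PECAM-1, an adhesion protein of endothelial junctions that platelets and leukocytes also carry (ENSMUSG00000020717.19, minus strand of chromosome 11, 106654217 to 106750628). All gene positions and identifiers here come from GENCODE release M21, which annotates GRCm38 (mm10). Pecam1 was at 76.4, 68.5 and 74.3 CPM in wild-type libraries 0, 1 and 2 and at 76.3, 70.4 and 74.0 CPM in knockout libraries 0, 1 and 2. The groups overlapped, and the highest library exceeded the lowest 1.11-fold. The Pecam1 mean was 73.1 ± 4.08 CPM (SD, n = 3) for wild-type mice and 73.5 ± 2.97 CPM for knockout mice. The log2 fold change was 0.0098 ± 0.069 (SE), with an adjusted p of 0.975 by edgeR's quasi-likelihood test. The platelet genes, of which 3 of 5 were tested and 0 passed, summed to 6.50 to 7.59 CPM in wild type and 7.24 to 8.09 CPM in knockout.

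Cdh5 encodes VE-cadherin, the adhesion molecule of endothelial adherens junctions (ENSMUSG00000031871.9, plus strand of chromosome 8, 104101625 to 104144511). It stood at 34.7, 39.1 and 33.1 CPM in wild type and at 34.1, 29.4 and 35.6 CPM in knockout kidneys. The highest value was in wild-type library 1 and the lowest in knockout library 1, and the other 4 libraries lay between them. The log2 fold change was −0.11 ± 0.099 (SE), with an adjusted p of 0.749 by edgeR's quasi-likelihood test. Emcn encodes endomucin, a mucin-like surface protein of capillary and venous endothelium (ENSMUSG00000054690.17, plus strand of chromosome 3, 137341067 to 137432185). It measured 70.9, 61.8 and 66.1 CPM in wild type and 71.6, 67.9 and 68.8 CPM in knockout kidneys. Emcn was lowest in wild-type library 1, where Cdh5 was highest. Its log2 fold change, 0.066 ± 0.071 (SE), was the highest of the 10 genes, with an adjusted p of 0.786 by edgeR's quasi-likelihood test.

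Kdr encodes the main signalling receptor for VEGF-A (ENSMUSG00000062960.10, minus strand of chromosome 5, 75932827 to 75978458). It was at 104.8, 138 and 142 CPM in wild type and at 136, 117 and 133 CPM in knockout kidneys. Wild-type library 0 was the lowest of all 6 and knockout library 1 the next, and the groups overlapped. The group means were 128 ± 20.5 CPM (SD, n = 3) for wild-type mice and 129 ± 10.3 CPM for knockout mice. The log2 fold change was 0.0038 ± 0.11 (SE) with an adjusted p of 0.993 by edgeR's quasi-likelihood test. Without wild-type library 0 it was −0.12, with an adjusted p of 0.587.

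Flt1 encodes the VEGF receptor that binds VEGF-A tightly and, in its soluble form, traps it (ENSMUSG00000029648.13, minus strand of chromosome 5, 147561604 to 147726011). The deposited counts do not tell the soluble form from the membrane form. Flt1 was at 52.9, 76.1 and 67.5 CPM in wild type and at 62.7, 57.0 and 63.8 CPM in knockout kidneys. Wild-type library 0 was again the lowest and knockout library 1 the next lowest. The log2 fold change was −0.098 ± 0.12 (SE), with an adjusted p of 0.818 by edgeR's quasi-likelihood test. It was −0.23 without wild-type library 0 (adjusted p = 0.406) and 0.031 without wild-type library 1 (adjusted p = 0.971), so its sign changed with the wild-type kidney left out. The log2 CPM of Flt1 less that of Kdr, a ratio that compares libraries and not the levels of the genes, was −0.97 ± 0.11 (SD, n = 3) for wild-type mice and −1.07 ± 0.043 for knockout mice.

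Tek encodes TIE2, the receptor for the angiopoietins (ENSMUSG00000006386.15, plus strand of chromosome 4, 94739289 to 94874976). It measured 61.0, 64.4 and 70.9 CPM in wild type and 71.2, 65.1 and 66.8 CPM in knockout kidneys. The groups overlapped, and the log2 fold change was 0.051 ± 0.076 (SE), with an adjusted p of 0.850 by edgeR's quasi-likelihood test. Tie1 encodes the co-receptor that modulates TIE2 (ENSMUSG00000033191.14, minus strand of chromosome 4, 118471191 to 118490061). It was at 35.5, 41.7 and 38.5 CPM in wild type and at 40.4, 38.7 and 38.2 CPM in knockout kidneys. The 3 knockout values fell inside the wild-type range, its log2 fold change being 0.019 ± 0.082 (SE) at an adjusted p of 0.957 by edgeR's quasi-likelihood test.

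Egfl7 encodes a secreted protein that endothelial cells lay down around themselves (ENSMUSG00000026921.18, plus strand of chromosome 2, 26580014 to 26593120). It was at 33.4, 35.6 and 29.2 CPM in wild type and at 30.7, 33.4 and 32.3 CPM in knockout kidneys. The knockout values again lay inside the wild-type range, and the log2 fold change was −0.030 ± 0.091 (SE), with an adjusted p of 0.934 by edgeR's quasi-likelihood test. On the deposited FPKM, fragment counts scaled to gene length and library depth, the sign turned, at 0.015 on the log2(FPKM + 1) scale. Exons of Egfl7 overlap those of Agpat2 on the other strand and of Gm20532 on the same strand, so its count is less certain than the others. The Egfl7 gene carries the endothelial microRNA miR-126, whose 3′ arm is printed with its seed, bases 2 to 8, in capitals because it is the regulatory product of this locus.
mmu-miR-126a-3p: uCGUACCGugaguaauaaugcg
In RefSeq (GRCm38.p6) these 22 bases are chr2:26591402-26591423, plus strand. The deposited table has a separate gene for miR-126, Mir126, which held 0 fragments over the 6 libraries, so the microRNA itself was not measured here.

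Ehd3 encodes an endocytic trafficking protein that, in the kidney, is known as a marker of glomerular endothelium (ENSMUSG00000024065.8, plus strand of chromosome 17, 73804134 to 73832094). It was at 36.0, 62.0 and 53.9 CPM in wild type and at 51.9, 38.7 and 44.4 CPM in knockout kidneys. Both the lowest and the highest library were wild type, and the 3 knockout values lay between them. The Ehd3 mean was 50.7 ± 13.3 CPM (SD, n = 3) for wild-type mice and 44.99 ± 6.58 CPM for knockout mice. The log2 fold change was −0.17 ± 0.18 (SE), with a 95% interval from −0.57 to 0.23 and an adjusted p of 0.785 by edgeR's quasi-likelihood test. It was −0.37 without wild-type library 0 (adjusted p = 0.380) and 0.011 without wild-type library 1 (adjusted p = 0.993). The spread between mice exceeded counting error, which at 583 fragments, the smallest count of Ehd3, is 4.14%, while the highest library exceeded the lowest 1.72-fold. Among the 500 genes nearest in level, 97.8% had a smaller within-group SD than Ehd3.

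Plvap encodes the protein of the fenestral diaphragm (ENSMUSG00000034845.6, minus strand of chromosome 8, 71497765 to 71511752). It measured 67.5, 88.8 and 66.6 CPM in wild type and 64.4, 61.5 and 74.0 CPM in knockout kidneys. Wild-type library 1 was the highest, and the other 5 libraries lay within 61.5 to 74.0 CPM. The Plvap mean was 74.3 ± 12.6 CPM (SD, n = 3) for wild-type mice and 66.6 ± 6.56 CPM for knockout mice. The log2 fold change was −0.16 ± 0.12 (SE), with an adjusted p of 0.696 by edgeR's quasi-likelihood test, the smallest of the 10 genes. Dropping 1 library at a time moved the Plvap log2 fold change between −0.24 (knockout library 2) and −0.0047 (wild-type library 1). Its value was −0.22 once wild-type library 0 was dropped.

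**Figure D2:**
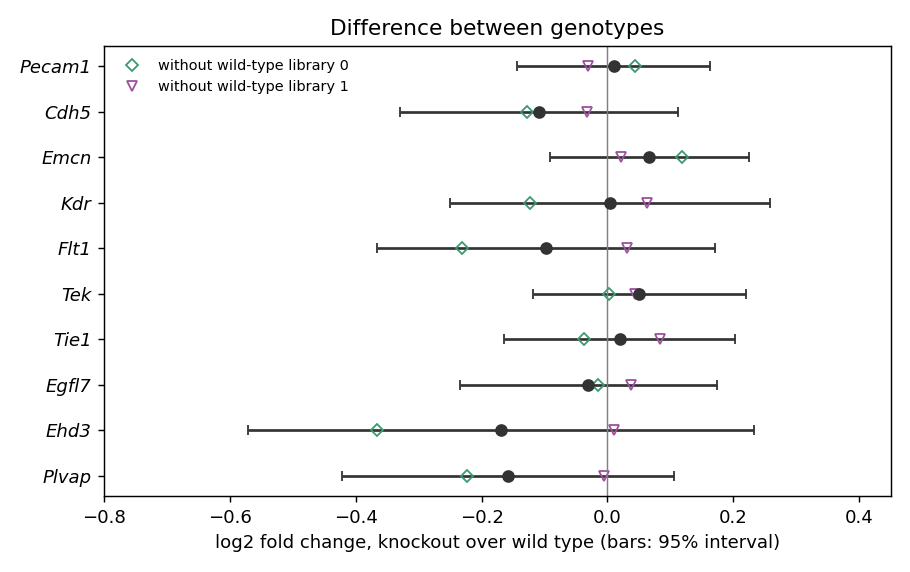
Knockout over wild type as a log2 fold change for each endothelial gene (black points, edgeR, bars are 95% confidence intervals), with the values when wild-type library 0 (diamonds) or wild-type library 1 (triangles) is left out. All 10 intervals include 0, and Ehd3 moves from −0.37 to 0.011 between these alternatives.

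In the authors' deposited table the 10 genes had log2 fold changes of KO over WT between −0.15 for Ehd3 and 0.074 for Emcn. The smallest q-value of the 10 genes in the authors' deposited table was 0.949, for Ehd3.

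Per length, endomucin led the endothelial genes. Over the 6 libraries Emcn averaged 43.2 ± 2.65 FPKM (SD, n = 6) and Plvap 32.7 ± 4.11 FPKM. They were followed by Egfl7 at 20.6 ± 1.46 FPKM, Kdr at 20.5 ± 2.06 FPKM and Pecam1 at 18.9 ± 0.987 FPKM. Tek stood at 12.7 ± 0.535 FPKM, Ehd3 at 10.7 ± 2.11 FPKM, Flt1 at 8.74 ± 1.07 FPKM, Tie1 at 8.40 ± 0.452 FPKM and Cdh5 at 6.88 ± 0.668 FPKM. Neighbours in this order that differed by less than the larger SD were Egfl7 and Kdr, Kdr and Pecam1, Tek and Ehd3, Ehd3 and Flt1, and Flt1 and Tie1. Ehd3 nevertheless exceeded Flt1 in 6 of 6 libraries. Egfl7 exceeded Kdr in 2 of 6 libraries and Flt1 exceeded Tie1 in 3 of 6. Emcn exceeded Plvap in 5 of 6 libraries, the exception being wild-type library 1.

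The 10 genes did not vary as 1 block across the kidneys. Of the 45 pairs of genes, 26 had a positive Pearson r of log2 CPM over the 6 libraries, with a median r of 0.23 and a range from −0.80 for Tek and Egfl7 to 0.95 for Flt1 and Ehd3. These values are descriptions over 6 libraries that share a sequencing design. Kdr, Flt1 and Ehd3 had their lowest level in wild-type library 0, their next lowest in knockout library 1, and their highest levels in wild-type libraries 1 and 2. Pecam1 and Emcn went the other way, with their lowest level in wild-type library 1 and their highest in wild-type library 0 and knockout library 0. Wild-type library 1 held the highest value of 6 of the 10 genes and wild-type library 0 the lowest of 5.

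Promoter sequence is shown for Kdr, Flt1 and Ehd3, which ranked the kidneys nearly alike, and for Egfl7, which did not. RefSeq promoter entries (GRCm38.p6) were found for 7 of the 10 genes, with 9 start sites in all. Each run gives the 250 bases before a start, on the strand of the gene, with capitals for any of 6 motifs searched on both strands. The motifs were the ETS core in the form CAGGAAG or in the form CCGGAAG, the forkhead motif TGTTTAC, the GATA-factor motif AGATAA, the TATA-box motif TATAAA and the SP1 motif GGGCGG.
Kdr promoter: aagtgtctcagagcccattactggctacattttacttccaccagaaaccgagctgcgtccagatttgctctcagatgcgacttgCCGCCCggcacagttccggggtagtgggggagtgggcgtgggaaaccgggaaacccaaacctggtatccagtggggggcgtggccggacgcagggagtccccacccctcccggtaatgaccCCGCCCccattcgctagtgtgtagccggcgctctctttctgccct
Flt1 promoter: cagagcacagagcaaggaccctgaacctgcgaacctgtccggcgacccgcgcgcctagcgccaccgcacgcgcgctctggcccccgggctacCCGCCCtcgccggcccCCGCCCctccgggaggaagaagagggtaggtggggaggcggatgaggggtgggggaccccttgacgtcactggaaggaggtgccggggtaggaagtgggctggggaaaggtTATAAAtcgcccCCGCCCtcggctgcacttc
Ehd3 promoter: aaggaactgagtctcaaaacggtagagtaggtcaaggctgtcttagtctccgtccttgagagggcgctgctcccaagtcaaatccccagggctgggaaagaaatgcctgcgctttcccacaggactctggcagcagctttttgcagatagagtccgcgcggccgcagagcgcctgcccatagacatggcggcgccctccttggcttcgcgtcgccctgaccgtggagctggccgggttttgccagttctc
Egfl7 promoter: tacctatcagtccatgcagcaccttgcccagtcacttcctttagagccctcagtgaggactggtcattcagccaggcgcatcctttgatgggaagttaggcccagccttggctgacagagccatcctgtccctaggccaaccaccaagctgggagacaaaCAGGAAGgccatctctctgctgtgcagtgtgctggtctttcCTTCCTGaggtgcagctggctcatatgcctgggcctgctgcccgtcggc
The Kdr run is chr5:75978456-75978705 and the Flt1 run chr5:147726012-147726261, both on the minus strand. The Ehd3 run is chr17:73804591-73804840, within a longer noncoding GENCODE transcript of that gene, and the Egfl7 run chr2:26580833-26581082, the first of 3 start sites, both on the plus strand. Kdr held 2 SP1 matches and no TATA box, Flt1 3 SP1 matches and a TATA box, Ehd3 none of the 6 motifs, and Egfl7 2 matches of CAGGAAG. No matches overlapped in these 4 runs. Over the 9 windows of endothelial genes, CAGGAAG was found in 3 and GGGCGG likewise in 3, TATAAA was found in 1, and the other 3 motifs were in 0. The windows with CAGGAAG were those of starts 1 and 2 of Egfl7 and that of Emcn, and starts of 1 gene are not independent. Of all 32851 windows in the table, 10.8% held CAGGAAG, 32.7% the SP1 motif, 12.4% the TATA-box motif, 6.91% CCGGAAG, 3.17% the forkhead motif and 9.99% the GATA-factor motif. A match is a string of letters and not a measured binding site.

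The balance of the capillary beds was compared within each library, as the log2 CPM of Ehd3 or Plvap less the mean log2 CPM of the 8 other genes, a ratio to be read between libraries and not between genes. Ehd3 relative to them was −0.59, 0.050 and −0.10 in wild type and −0.18, −0.49 and −0.38 in knockout. Knockout values lay within the wild-type range, and the means were −0.21 ± 0.34 (SD, n = 3) for wild-type mice and −0.35 ± 0.16 for knockout mice. Plvap relative to the 8 genes was 0.31, 0.57 and 0.21 in wild type and 0.13, 0.17 and 0.35 in knockout. The ranges overlapped here too, with means of 0.36 ± 0.19 (SD, n = 3) and 0.22 ± 0.12. Ehd3 relative to Plvap averaged −0.58 ± 0.30 (SD, n = 3) for wild-type mice and −0.57 ± 0.23 for knockout mice, a difference of 0.0040. The 8 genes themselves had a geometric mean of 57.3 ± 2.84 CPM (SD, n = 3) for wild-type and 57.1 ± 2.18 CPM for knockout mice. Their Pearson r with Ehd3 ran from −0.66 for Emcn to 0.95 for Flt1, so this mean averages genes that moved in opposite ways.

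**Figure D3:**
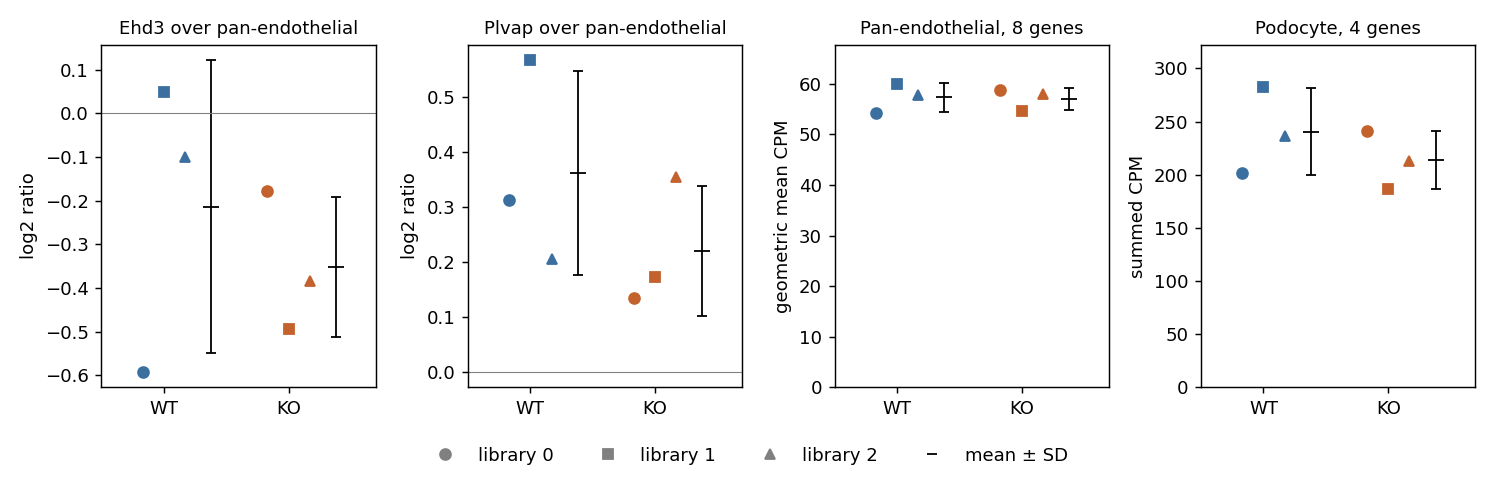
Log2 ratio of Ehd3 and of Plvap to the 8 other endothelial genes, geometric mean CPM of those 8 genes, and summed CPM of 4 podocyte genes, by library (symbols) with the mean and SD of 3 libraries per genotype (bars); the CPM axes start at 0. The 8 genes hold between 54.3 and 59.9 CPM, which is 5.76 to 5.91 on the log2 scale, while the log2 ratio of Ehd3 spans −0.59 to 0.050.

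Ehd3 and the summed CPM of 4 genes of podocytes, the epithelial cells of the glomerulus, ranked the kidneys nearly alike. The podocyte genes Nphs1, Podxl, Synpo and Wt1 summed to 201, 283 and 236 CPM in wild type and to 242, 186 and 213 CPM in knockout, with none of them at 0. Wild-type library 1 was the highest for both, wild-type library 2 and knockout library 0 came next, in either order, then knockout library 2, and wild-type library 0 and knockout library 1 the lowest for both. Most of the sum was Podxl, at 156, 219 and 187 CPM in wild type and at 189, 145 and 168 CPM in knockout. Podxl ranked the kidneys as the sum did, but the other podocyte genes did not. Nphs1 was highest in knockout library 0 and lowest in knockout library 2. Synpo and Wt1 were highest in wild-type library 1 and lowest in knockout library 1, but next highest in knockout library 2. The part of glomerular content in the spread of Ehd3 was not tested. Of the 4 podocyte genes 0 passed edgeR's quasi-likelihood test with adjustment and 0 had an unadjusted p under 0.05, while the knockout mean was lower for all 4 (as for 51.7% of all tested genes) and the median log2 fold change was −0.21. Synpo, an actin-associated protein of podocyte foot processes, had the smallest p of them, its log2 fold change being −0.27 ± 0.14 (SE) at an adjusted p of 0.609. With 1 library left out, the podocyte median ran from −0.32 (wild-type library 0) over −0.28 (knockout library 0) and −0.13 (knockout library 1) to −0.0085 (wild-type library 1). In the last of these 2 of 4 were lower.

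Other genes of glomerular endothelium were Plat, Sost, Pi16, Gata5, Tbx3 and Smad6, of which 5 were tested and 0 passed. They summed to 84.7, 122 and 101 CPM in wild type and to 104.0, 84.1 and 87.5 CPM in knockout. The sum was again highest in wild-type library 1 and lowest in wild-type library 0 and knockout library 1. Most of it was Plat, highest in wild-type library 1 (99.4 CPM) and lowest in wild-type library 0 (67.8 CPM) and knockout library 2 (68.3 CPM). Of the 5 tested genes 4 were lower in the mean, against 51.7% of all tested genes. The median log2 fold change of the 5 was −0.30, and ran from −0.46 (wild-type library 0 left out) over −0.12 (knockout library 1) to −0.083 (wild-type library 1). Pi16, which encodes peptidase inhibitor 16, had the smallest p of them, its log2 fold change being −0.37 ± 0.20 (SE) at an adjusted p of 0.611 by edgeR's quasi-likelihood test. The 4 genes listed for peritubular capillaries, Igfbp3, Npr3, Igfbp5 and Cd36, were split evenly in sign, with a median of 0.028 (−0.018 to 0.10 with 1 library left out) and 0 past the test. Igfbp5, which encodes an insulin-like growth factor binding protein, had the smallest p, its log2 fold change being −0.25 ± 0.13 (SE) at an adjusted p of 0.610.

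No ligand or partner of the endothelial receptors passed the test between the genotypes. Of 11 genes listed, 10 were tested by edgeR's quasi-likelihood test, 0 passed after adjustment, 0 had an unadjusted p under 0.05, and the median log2 fold change was −0.042 (−0.083 to −0.0056 with 1 library left out). The groups did not overlap for 1 of the 10, Vegfc, against 14.1% of all genes tested. Vegfa, the ligand of KDR and FLT1, was at 167, 209 and 202 CPM in wild type and at 199, 186 and 190.5 CPM in knockout, with a log2 fold change of −0.0060 ± 0.087 (SE). As with Kdr, its lowest value was in wild-type library 0. Angpt1, the agonist of TIE2, had a log2 fold change of 0.14 ± 0.093 (SE) and Angpt2, its context-dependent antagonist, one of 0.15 ± 0.10. Vegfc was at 2.43, 2.28 and 2.27 CPM in wild type and at 3.07, 2.46 and 2.80 CPM in knockout kidneys, higher in all 3, with a log2 fold change of 0.26 ± 0.19. Vegfb stood at −0.23 ± 0.17 and Figf, which encodes VEGF-D, at −0.21 ± 0.17. Pgf, which encodes placental growth factor, stayed under the filter, at 0.162 to 0.397 CPM. The VEGF co-receptors Nrp1 and Nrp2 had log2 fold changes of 0.014 ± 0.078 and −0.079 ± 0.085, and Flt4, the receptor for VEGF-C, one of −0.15 ± 0.15. Ptprb, the phosphatase that restrains TIE2, was at 96.2, 132 and 139 CPM in wild type and at 115, 88.1 and 107 CPM in knockout, its log2 fold change being −0.24 ± 0.14 (SE) at an adjusted p of 0.634. Its 2 lowest libraries were those where Kdr, Flt1 and Ehd3 were lowest.

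A wider list of 30 genes expressed across blood endothelium, all of them tested, held 0 genes past edgeR's quasi-likelihood test with adjustment and 0 called by DESeq2. An unadjusted p under 0.05 was found for 4 of the 30, against 8.31% of all genes tested. The mean was lower in knockout for 18 and higher for 12, against 51.7% lower over all genes tested. The median log2 fold change of the 30 was −0.078, and ran from −0.12 (wild-type library 2 left out) over −0.047 (knockout library 0) to −0.026 (wild-type library 1). Without wild-type library 0 it was −0.068, with 16 of the 30 lower, and without wild-type library 2 the number lower was 21. The groups did not overlap for 4 of them, 1 higher and 3 lower, against 14.1% of all genes. Tmem204, an endothelial membrane protein, had the smallest p of the list, at 26.0, 26.6 and 25.6 CPM in wild type and 32.1, 29.6 and 28.8 CPM in knockout kidneys. Its log2 fold change was 0.21 ± 0.077 (SE), with an adjusted p of 0.599. The 3 that were lower without overlap, named after their values were seen, were Erg, an ETS factor of endothelial identity, at −0.30 ± 0.12 (SE), Rasip1, a junction regulator of vessel lumens, at −0.34 ± 0.14, and S1pr1, a receptor for sphingosine 1-phosphate, at −0.16 ± 0.086.

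Genes of arteries, veins and lymphatics gave no call either. For all 7 arterial genes the knockout mean was lower, as it was for 51.7% of all tested genes. Their median log2 fold change was −0.12, with 0 past edgeR's quasi-likelihood test with adjustment. That median was −0.15 with wild-type library 0 left out and −0.21 with wild-type library 2 left out. It was −0.19 with knockout library 0 left out and −0.058 with knockout library 1 left out. Of the 7 genes 5 were lower when wild-type library 1 or knockout library 2 was left out, and 6 when knockout library 1 was. Bmx, a kinase of arterial endothelium, was at 1.44, 1.04 and 1.49 CPM in wild type and at 0.569, 0.731 and 0.647 CPM in knockout. It was the 1 gene of the 7 that was lower without overlap, against 6.96% of all tested genes. Its log2 fold change was −1.02 ± 0.30 (SE), with an unadjusted p of 0.00688 and an adjusted p of 0.599. The 4 tested genes of veins and lymphatics likewise had lower knockout means, against the same 51.7% of all tested genes. Their median was −0.20, and −0.10 without wild-type library 0, with 3 of 4 lower. Nr2f2, the venous identity factor, stood at −0.15 ± 0.067 (SE) with an adjusted p of 0.599 by edgeR's quasi-likelihood test. The lymphatic marker Lyve1, at 0.149 to 0.598 CPM, stayed under the filter. Of the adhesion molecules of activated endothelium 3 of 5 were tested and 0 passed. Their median of −0.96 moved with wild-type library 0, where Vcam1 was at 53.4 CPM against 13.6 to 14.2 CPM in the other 5. That library also stood apart in Havcr1 and in macrophage genes, and which cells held the Vcam1 RNA was not tested. Vcam1 was named after its values were seen, and without that library the median of these 3 genes was 0.032. Sele, which encodes E-selectin, had the smallest p of these, its log2 fold change being −1.01 ± 0.46 (SE) at an adjusted p of 0.600. It rested on few fragments, 25, 25 and 9 in wild type and 4, 7 and 15 in knockout.

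**Figure D4:**
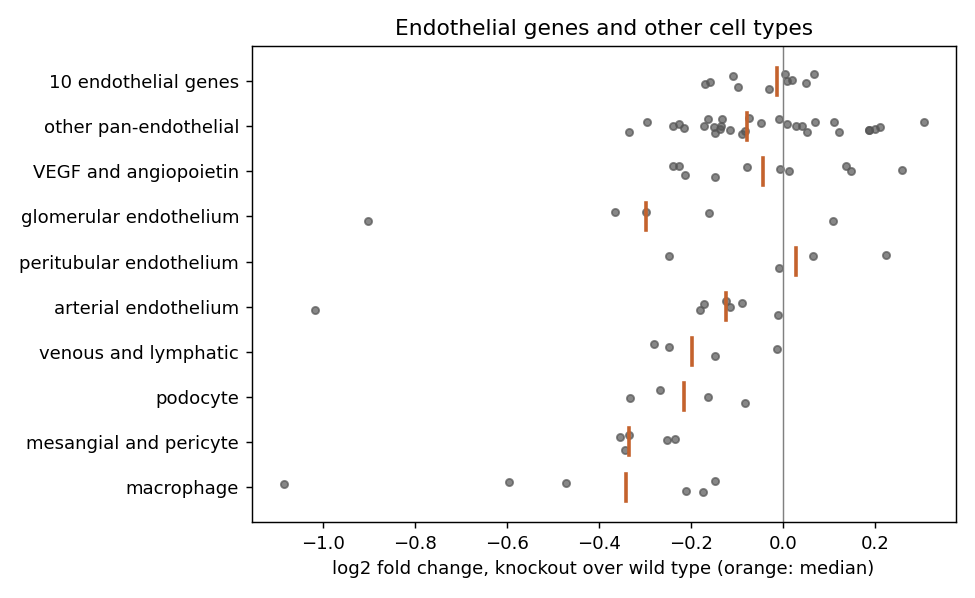
Knockout over wild type as a log2 fold change for each tested gene (points, spread vertically for visibility) in lists of endothelial genes and of neighbouring cell types, with the median of each list (orange line). The median of the 10 endothelial genes is −0.013, that of the podocyte list −0.21 and that of the mesangial and pericyte list −0.34.

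Genes of the mural cells that wrap these vessels had lower means in knockout. This held for 5 of 5 mesangial and pericyte genes and 5 of 5 smooth muscle genes, against 51.7% of all tested genes. The part of mural cells in the endothelial values was not tested. The mesangial and pericyte genes Pdgfrb, Rgs5, Itga8, Cspg4 and Notch3 summed to 151 to 166 CPM in wild type and 122 to 140 CPM in knockout, with none at 0. Of these 5 genes 4 were lower without overlap, against 6.96% of all tested genes. By edgeR's quasi-likelihood test 4 had an unadjusted p under 0.05, against 8.31% of all genes (5.14% lower in knockout), and 0 passed after adjustment. Their median log2 fold change was −0.34, −0.31 without wild-type library 0 and −0.21 without wild-type library 1. Rgs5, a regulator of G-protein signalling in pericytes, was at 32.3, 28.7 and 30.7 CPM in wild type and 24.7, 23.1 and 24.4 CPM in knockout, its log2 fold change being −0.34 ± 0.080 (SE) at an adjusted p of 0.599. The 5 smooth muscle genes summed to 122 to 137 CPM in wild type and 103 to 123 CPM in knockout. Of them 2 had an unadjusted p under 0.05 by the same test, with the same background, and 0 passed after adjustment. Their median log2 fold change was −0.12, and −0.23 without knockout library 0 and likewise without knockout library 1. It was −0.13 without wild-type library 0 and −0.11 without wild-type library 1. Of these 5 genes 4 were lower when wild-type library 1 or knockout library 0 was left out. Synpo2, an actin-binding protein of muscle, had their smallest p, its log2 fold change being −0.44 ± 0.13 (SE) at an adjusted p of 0.599. Macrophage genes summed to 206 CPM in wild-type library 0 and to 88.8 to 121 CPM in the other 5 libraries, with 0 of 6 past the test and a median of −0.34, which was 0.0083 without that library. Csf1r, the receptor for colony-stimulating factor 1, had the smallest p of them, its log2 fold change being −0.17 ± 0.080 (SE) at an adjusted p of 0.600.

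The genes whose level followed the mean standardised log2 CPM of the 10 endothelial genes most closely, among 12635 genes at an average log2 CPM of 0 or more, were Rarg, Zdhhc14, Kdm4a, Kctd6 and Tsc1. Their Pearson r over the 6 libraries ran from 0.978 to 0.998. They were picked for the highest r of 12635 genes, so their closeness to the mean follows from the choice. Rarg, a retinoic acid receptor, was at 8.88, 12.5 and 10.5 CPM in wild type and at 11.6, 8.44 and 10.7 CPM in knockout, lowest in the libraries where the endothelial mean was lowest. The wider endothelial list had a median r of 0.31 with the same mean, against −0.05 for all 12635 genes, and 0 of its 30 genes were among the 100 closest.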

How the data were processed

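Right kidneys gave total RNA for stranded libraries depleted of ribosomal RNA, according to the labels. Cuffdiff with Cufflinks 2.2.1, Bowtie2 2.2.3, cutadapt 1.2.1, SAMtools 1.2, TopHat2 2.0.13 and the mm10 build are named, without roles, in the submitters' processing notes. The sources used here do not give the gene models, the strand setting or the handling of multiply aligned fragments. Per gene and library, the deposited table holds an estimated count of fragments, whole for all 10 genes, and the authors' FPKM. A deposited comparison table holds the authors' log2 fold change, p-value and q-value per gene.

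After rounding, the estimated counts went through filterByExpr and TMM scaling to edgeR 4.0.16 in R 4.3.3 (quasi-likelihood F test, 2 groups, two-sided, Benjamini-Hochberg over all 14354 genes, threshold 0.05). CPM use library sizes scaled by TMM. The p-values measure the spread between mice, which the labels call biological replicates. Common biological variation was 10.1%. Simulated data with known changes were used to check the scripts. Alternatives were RLE and upper-quartile scaling, other filters, DESeq2 1.42.0, limma-voom (limma 3.58.1), limma on log2(FPKM + 1) and log2(FPKM + 0.1), a threshold of 0.10 and each library left out.

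The 10 genes and the gene lists were chosen with earlier results of these data known. Named genes are the 10, all VEGF and angiopoietin genes, of each other list up to 3 called members or the 1 with the smallest p, and the 5 genes closest to the mean of the 10. Of 5 platelet, 6 blood, 5 injury and 5 kidney genes likewise listed, 0 passed. Some podocyte genes are not reported here.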

Additional observations from a re-analysis of the deposited data

How the results depend on the processing

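None of the 10 endothelial genes passed in any of 14 alternative fits (0 of 140, lowest adjusted p = 0.380 by edgeR, for Ehd3 without wild-type library 0), and 0 passed at a threshold of 0.10. Over all genes, 1 gene was called without a filter, 1 at a threshold of 0.10, 13 by DESeq2, and 0 to 1 with a library left out; the cause was not tested. The median of the 10 genes ran from −0.080 to 0.026. Cdh5, Emcn, Plvap and Tek kept their sign in every fit. Kdr turned with upper-quartile scaling (−0.012) and a filter of 1 CPM in 3 libraries (−0.00011), and ran from −0.12 to 0.083 with 1 library left out. Pecam1 turned with upper-quartile scaling (−0.0057) and ran from −0.031 to 0.044. Egfl7 was 0.015 on log2(FPKM + 1) and 0.016 on log2(FPKM + 0.1), and ran from −0.10 to 0.038. With 1 library left out, Ehd3 ran from −0.37 to 0.011, Flt1 from −0.23 to 0.031 and Tie1 from −0.037 to 0.084. The difference of the Ehd3 ratio between genotypes, −0.14, ran from −0.33 to −0.0062 over its alternatives, that of Plvap, −0.14, from −0.22 to −0.040, and that of Ehd3 over Plvap from −0.16 to 0.14, each moving from its value over all libraries by less than 1 SD between mice. The other lists gave 0 calls in all 14 fits, an alternative chosen after seeing the data. No paired analysis was possible because the labels give the mice no replicate numbers and the library numbers of the table match no label.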

Other observations

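Haemoglobin genes, which mark red blood cells and their precursors, were unevenly spread over the libraries. Hba-a1 was at 59.5, 0 and 49.8 CPM in wild type and at 68.4, 55.2 and 54.1 CPM in knockout, and Hba-a2 at 59.7, 111 and 28.1 CPM in wild type and 54.7, 39.1 and 39.9 CPM in knockout kidneys. The copies are near-identical, so neither is certain on its own, and Hba-a2 was highest in the library where Hba-a1 was at 0. The 4 blood genes measured, these copies with Hbb-b1 and Alas2, summed to 203, 196 and 132 CPM in wild type and to 211, 154 and 166 CPM in knockout. Hbb-b1 was at 57.4, 60.3 and 36.9 CPM in wild type and at 62.5, 43.9 and 49.8 CPM in knockout, lowest in wild-type library 2. Of the 4 blood genes tested 0 passed edgeR's quasi-likelihood test with adjustment, and 0 had an unadjusted p under 0.05.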
